A study of Mus musculus with 32 samples.

Results

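The genes described here are 10 regulators of the G1 phase of the cell cycle, out of 20660 mouse gene symbols that could be named on the arrays. They are the 3 D cyclins (Ccnd1, Ccnd2 and Ccnd3), the 2 kinases they activate (Cdk4 and Cdk6), 3 genes of kinase inhibitors (Cdkn2a, Cdkn2c and Cdkn1b), the retinoblastoma gene Rb1 and the transcription factor gene E2f1. They were chosen by name, and every probe whose RefSeq accession belongs to one of them was used. This gave 14 probes, with 3 for Cdk4, 2 each for Ccnd3 and Cdkn2a and 1 for each of the other 7 genes. All 14 probes were followed in 4 groups of samples.

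All samples came from mice of strain 129+Ter/SvJcl aged 3 weeks. Passaged spheres (4 cultures on 2 arrays each) were primary spheres taken through 5 passages, and primary spheres (8 cultures) were grown for 8 days from TH-MYCN hemizygotes (TH-MYCN+/-). Superior mesenteric ganglion (SMG), in which abdominal sympathetic neurons lie, came from 8 TH-MYCN hemizygotes and from 8 wild-type (WT) mice. In TH-MYCN mice a human MYCN gene is driven by a tyrosine hydroxylase promoter, which is active in sympathetic cells, and the mice develop neuroblastoma. The labels do not say which primary sphere gave which passaged culture.

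RNA was read on one-colour arrays, and a level here is the log2 processed signal of a probe minus the log2 75th percentile of all signals on its array. Levels compare samples for one probe, not one gene with another. That percentile was 323 to 539 intensity units on passaged sphere arrays, 464 to 564 on primary sphere arrays, 840 to 1358 on TH-MYCN SMG arrays and 523 to 989 on WT SMG arrays. Of all spots, the percentage well above background was 49.0% to 53.9%, 57.0% to 59.7%, 59.1% to 64.1% and 60.4% to 65.7% in the same order, lowest in passaged spheres. All 8 markers of sympathetic neurons were detected in every group. Their summed linear level, relative to the 75th percentile, was 685 to 758 in passaged spheres, 583 to 672 in primary spheres, 633 to 1050 in TH-MYCN SMG and 1064 to 1478 in WT SMG. Markers of Schwann cells and satellite glia summed to 1.56 to 1.78 in passaged spheres, 2.21 to 11.5 in primary spheres, 55.0 to 82.2 in TH-MYCN SMG and 119 to 145 in WT SMG, with Erbb3 not well above background on any sphere array. Fibroblast markers summed to 0.249 to 0.670, 0.423 to 8.59, 176 to 217 and 278 to 414 in that order. Macrophage markers summed to 0.813 to 1.01, 0.656 to 1.19, 22.8 to 43.9 and 14.5 to 20.1. Smooth muscle and pericyte markers summed to 1.72 to 2.58, 1.10 to 4.16, 3.24 to 5.70 and 5.05 to 40.3. The sum for endothelium was not lower in spheres, at 4.38 to 7.33, 3.51 to 7.04, 2.42 to 4.44 and 3.51 to 12.4. Of its 6 markers, however, 5 were lower and 1 was higher in primary spheres than in TH-MYCN SMG by limma. The part of these cells in the results below was not tested, and in bulk RNA fewer cells of a type and less RNA per cell cannot be told apart. Mouse Mycn averaged 4.05 ± 0.15 (SD, n = 4) in passaged spheres, 3.61 ± 0.16 in primary spheres, 1.00 ± 0.12 in TH-MYCN SMG and 1.30 ± 0.36 in WT SMG (SD, n = 8 each), by a probe that may miss human MYCN. It was higher in primary spheres than in TH-MYCN SMG by 2.61 and in passaged than in primary spheres by 0.44 (limma adjusted p = 1.47e-14 and 0.0145). The second call was lost within slide 4 (adjusted p = 0.0653) and without passaged culture 2 (0.0546). TH-MYCN SMG against WT SMG was not called (-0.29, limma adjusted p = 0.0631). Of 12 alternatives besides leaving out a sample, 4 called it lower, among them a slide block (0.0491) and slide 2 alone (-0.53, adjusted p = 0.0214).

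D cyclins couple growth signals to the cell cycle: they bind and activate CDK4 and CDK6, which phosphorylate the retinoblastoma protein and so release E2F factors that switch on genes of DNA synthesis. The INK4 proteins (from Cdkn2a, Cdkn2b, Cdkn2c and Cdkn2d) bind CDK4 and CDK6 and block them, whereas the CIP/KIP proteins (from Cdkn1a, Cdkn1b and Cdkn1c) bind cyclin and kinase together. Cdkn2a also encodes p19Arf, which restrains Mdm2 and thereby stabilises p53. MYC family proteins, MYCN among them, bind the E-box CACGTG.

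RefSeq start windows (build GRCm38.p6) were at hand for 7 of the 10 genes, 10 windows in all. The 250 bases before each start were searched on both strands for the E-box CACGTG and for the E2F motifs TTTCCCGC and TTTGGCGC. Ccnd1, Ccnd2 and Rb1 had no window. Of the 10 windows 7 held none of these motifs, that of E2f1 among them. The starts were taken as annotated, and which start these cells use was not tested. Cdk4 held 4 copies of CACGTG, whose first bases lay 172, 118, 98 and 11 bases before the start. Of all 32851 windows of this length in the table, 6.02% held CACGTG at least once and 0.0213%, or 7 windows, held it at least 4 times. The window of Cdk6, the partner kinase, held 1 copy at 220 bases before its start. Cdkn2a has 2 annotated starts, and the upstream one held 1 copy of TTTCCCGC at 99 bases before it, a motif found in 0.895% of all windows. The motif TTTGGCGC was in none of the 10 windows and in 0.417% of all. These matches describe letters and do not show that a factor binds there. The 3 windows with a match are shown 5′ to 3′ because they carry these motifs, with the motif in capitals. They lie at chr10:127063285-127063534 on the plus strand for Cdk4, at chr5:3343643-3343892 on the plus strand for Cdk6, and at chr4:89294620-89294869 on the minus strand for Cdkn2a.
Cdk4: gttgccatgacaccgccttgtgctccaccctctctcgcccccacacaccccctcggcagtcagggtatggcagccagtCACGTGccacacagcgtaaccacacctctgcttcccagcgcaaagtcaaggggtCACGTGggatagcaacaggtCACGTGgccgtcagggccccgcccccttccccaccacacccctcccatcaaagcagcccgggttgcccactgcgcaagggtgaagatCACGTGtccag
Cdk6: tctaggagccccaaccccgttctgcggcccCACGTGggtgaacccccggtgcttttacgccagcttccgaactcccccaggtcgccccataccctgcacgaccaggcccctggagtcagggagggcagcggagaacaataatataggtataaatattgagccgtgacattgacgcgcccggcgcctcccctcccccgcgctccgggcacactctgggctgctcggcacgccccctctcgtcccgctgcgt
Cdkn2a: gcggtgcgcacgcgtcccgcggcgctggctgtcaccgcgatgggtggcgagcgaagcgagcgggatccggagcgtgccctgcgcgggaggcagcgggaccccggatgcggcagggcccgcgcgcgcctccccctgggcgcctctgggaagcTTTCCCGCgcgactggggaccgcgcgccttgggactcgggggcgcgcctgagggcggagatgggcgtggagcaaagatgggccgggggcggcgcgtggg

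In the ganglion carrying the transgene, 5 of the 10 genes were higher than in WT SMG (Ccnd1, Cdk4, Cdkn2a, Cdkn2c and E2f1) and 0 were lower, by limma with Benjamini-Hochberg adjustment over 15826 genes and a threshold of 0.05. For comparison, 65.7% of all genes tested were called in this comparison, 21.9% higher and 43.8% lower. The samples of the groups did not overlap for 4 of the 10 genes, against 21.5% of all genes. The median difference was 0.54 over the 10 genes and -0.22 over all genes tested, so values can also be read relative to -0.22. In primary spheres 6 of the 9 genes tested were higher than in TH-MYCN SMG (Ccnd1, Cdk4, Cdkn2a, Cdkn2c, Cdkn1b and E2f1) and 3 were lower (Ccnd2, Ccnd3 and Rb1). There 83.2% of all 15637 genes tested were called, 50.3% higher and 32.9% lower, so that a count of 9 in 9 is near this background. For 6 of these genes the samples did not overlap, against 57.9% of all genes. The median was 0.67 over the 9 genes and 0.27 over all. In passaged spheres 4 of 9 genes were higher than in primary spheres (Ccnd1, Cdkn2c, Rb1 and E2f1) and 0 were lower, where 11.6% of all 14236 genes tested were called, 5.13% higher and 6.43% lower. The samples did not overlap for 2 genes, against 9.15% of all, and the median was 0.19 over the 9 genes and 0.02 over all. Cdk6 was not tested in either comparison with spheres, since its probe was well above background in too few samples.

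**Figure D1:**
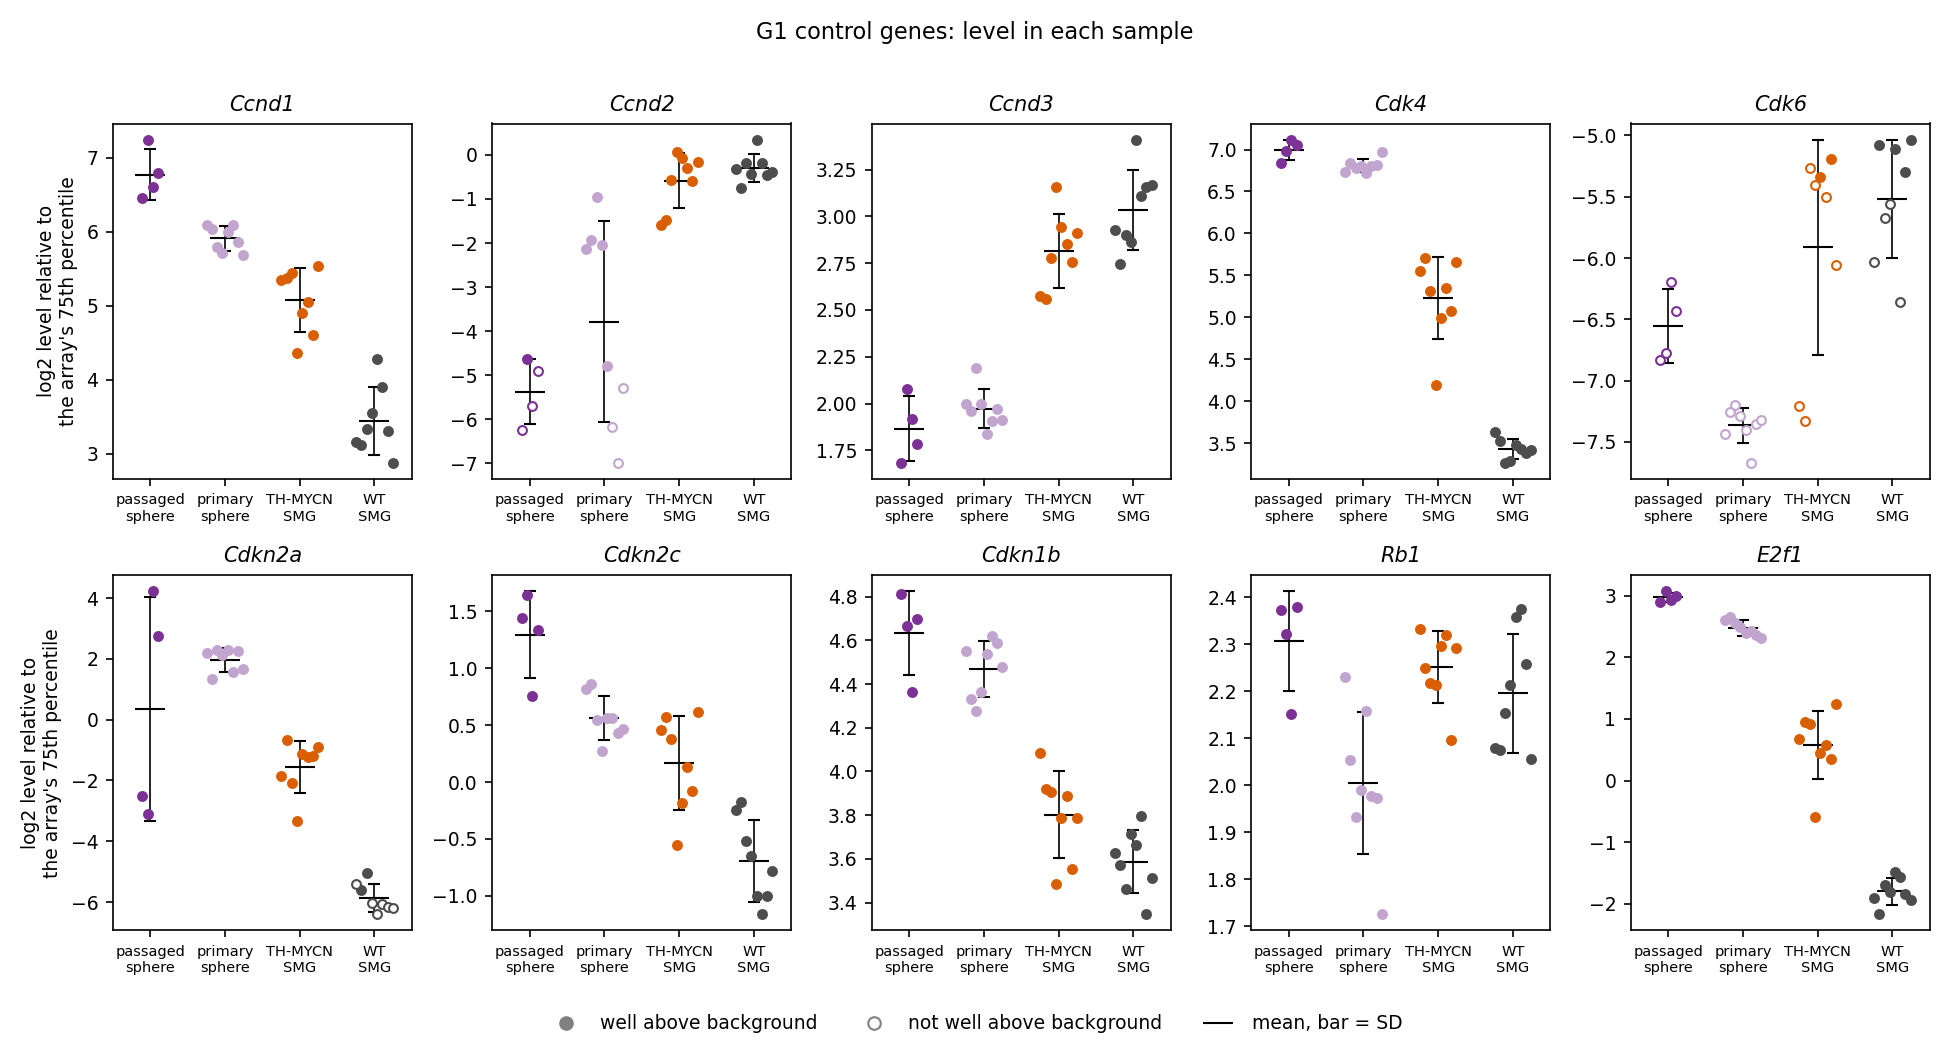
Level of each of the 10 genes (vertical axes, log2 relative to the array's 75th percentile, 1 panel per gene with its own scale) in 4 passaged spheres, 8 primary spheres, 8 TH-MYCN SMG and 8 WT SMG, left to right, with mean and SD; open points were not well above background, and a passaged culture is filled where at least 1 of its 2 arrays was. Ccnd1, Cdk4 and E2f1 step down from spheres to WT SMG, Ccnd2 and Ccnd3 run the other way, and the 4 passaged cultures are spread from -3.09 to 4.23 for Cdkn2a.

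**Figure D2:**
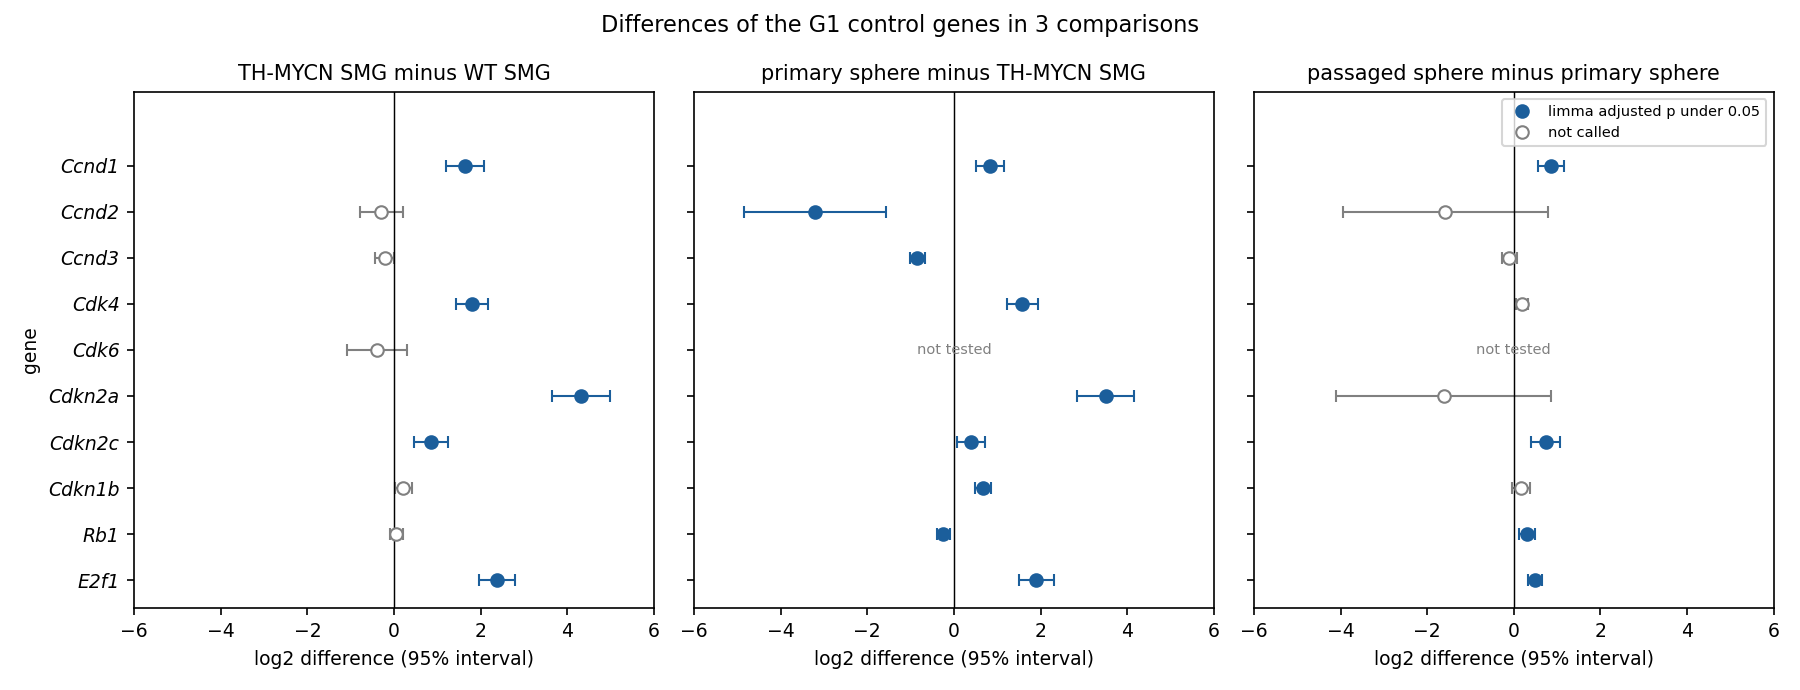
Log2 difference of each gene with its 95% interval (horizontal axes) in the 3 comparisons; filled blue points were called by limma at an adjusted p under 0.05. Cdkn2a has the largest difference of the 10 genes in TH-MYCN SMG minus WT SMG (4.32) and in primary sphere minus TH-MYCN SMG (3.51), and intervals over 4 log2 units wide for Ccnd2 and Cdkn2a in passaged sphere minus primary sphere.

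Ccnd1 was the D cyclin that stepped up at every comparison. It had levels of 6.45, 7.24, 6.60 and 6.79 in passaged spheres 1 to 4. The lowest, median and highest levels were 5.69, 5.93 and 6.09 in primary spheres, 4.36, 5.19 and 5.54 in TH-MYCN SMG and 2.88, 3.32 and 4.27 in WT SMG. No 2 neighbouring groups overlapped. The difference was 1.64 (SE 0.21, limma adjusted p = 7.80e-06), or 3.11-fold, in TH-MYCN SMG against WT SMG, with 1.84 within slide 1 and 1.43 within slide 2, the 2 slides that held both groups. In primary spheres against TH-MYCN SMG it was 0.83 (SE 0.16, limma adjusted p = 1.01e-04), but quantile normalization gave 0.17 and no call (adjusted p = 0.355). In passaged against primary spheres it was 0.86 (SE 0.14, limma adjusted p = 0.00311), with 0.90 within slide 3 and 0.83 within slide 4.

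Ccnd2 and Ccnd3, the other two D cyclins, were lower in primary spheres than in the ganglion. For Ccnd2 the levels were -6.25, -4.64, -5.71 and -4.91 in passaged spheres 1 to 4, and its probe was well above background on 1 of their 8 arrays. Primary spheres differed by slide. Those on slide 3 read -2.14, -1.94, -0.95 and -2.05, and those on slide 4 read -4.78, -6.17, -6.98 and -5.30, of which 1 was well above background. The levels in TH-MYCN SMG were -1.58 at the lowest, -0.43 at the median and 0.08 at the highest, against -0.74, -0.36 and 0.35 in WT SMG. Glial markers summed to 5.99 to 11.5 in the primary spheres on slide 3 and 2.21 to 2.59 in those on slide 4, and fibroblast markers to 4.21 to 8.59 and 0.423 to 0.803, and the part of these cells in the Ccnd2 levels was not tested. Ccnd2 was lower in primary spheres than in TH-MYCN SMG by limma (-3.20, SE 0.77, adjusted p = 0.00110), with a size that rests on signals near background and came to -1.51 with normexp background correction. The difference of passaged from primary spheres did not pass the test (-1.59, SE 1.09, limma adjusted p = 0.361). Within slide 3 the difference was -3.45 (adjusted p = 0.00284) and within slide 4 it was 0.28 (adjusted p = 0.764), so the value depends on which primary spheres it is set against. Between TH-MYCN SMG and WT SMG it was -0.29 (95% interval -0.78 to 0.20, limma adjusted p = 0.277).

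**Figure D3:**
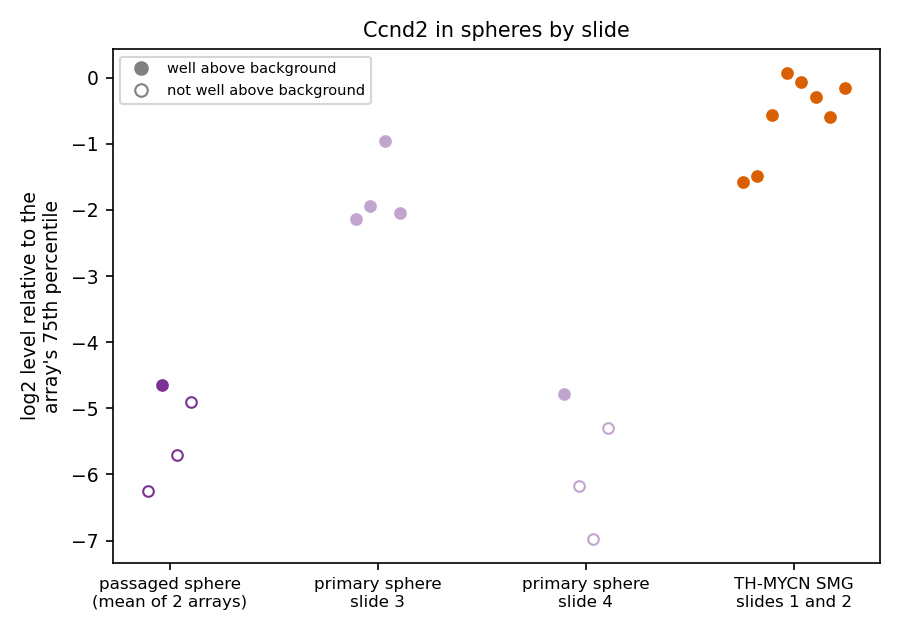
Ccnd2 level (vertical axis, log2 relative to the array's 75th percentile) in passaged spheres, in primary spheres on slide 3 and on slide 4, and in TH-MYCN SMG; open points were not well above background. The 4 primary spheres on slide 3 sit between -2.14 and -0.95 and the 4 on slide 4 between -6.98 and -4.78, with no overlap.

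For Ccnd3 the brighter probe read 1.69, 2.08, 1.92 and 1.78 in passaged spheres 1 to 4. Primary spheres had 1.84, 1.97 and 2.19 at the lowest, median and highest, TH-MYCN SMG had 2.56, 2.81 and 3.15, and WT SMG had 2.74, 3.02 and 3.41. Every sphere lay below every ganglion. In primary spheres relative to TH-MYCN SMG Ccnd3 fell by 0.84 in log2 units (limma adjusted p = 6.62e-08, SE 0.08), and the second probe fell by 1.11. It did not pass the test in passaged against primary spheres (-0.11, 95% interval -0.28 to 0.07, adjusted p = 0.426). In TH-MYCN SMG against WT SMG the difference of -0.22 missed the threshold (limma adjusted p = 0.0785), passed it with a slide block (adjusted p = 0.0408) or without WT SMG 2 or TH-MYCN SMG 4 (0.0382 and 0.0286), and came to 0.0023 once the median gene was set to 0.

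Cdk4, the kinase that D cyclins activate, was higher in TH-MYCN SMG than in WT SMG and higher again in primary spheres. By its brightest probe the levels were 6.84, 6.98, 7.12 and 7.06 in passaged spheres 1 to 4. They ran from 6.72 through a median of 6.81 to 6.97 in primary spheres, from 4.19 through 5.33 to 5.71 in TH-MYCN SMG, and from 3.27 through 3.42 to 3.64 in WT SMG. Passaged and primary spheres overlapped, and the other neighbouring groups did not. Cdk4 rose by 1.80 in TH-MYCN SMG relative to WT SMG (SE 0.17, limma adjusted p = 2.87e-07), or 3.49-fold, with 1.76 within slide 1 and 1.84 within slide 2. The other 2 probes gave 1.81 and 1.90. Primary spheres exceeded TH-MYCN SMG by 1.58 (SE 0.17, limma adjusted p = 1.74e-07), with 1.59 and 1.64 by the other probes and 0.80 after quantile normalization. The difference of passaged from primary spheres was 0.19 (95% interval 0.05 to 0.33) and was not called (limma adjusted p = 0.0821), although a slide block gave a call (adjusted p = 0.0402), as did leaving out primary sphere 8 or passaged culture 1 (0.0397 and 0.0415). The SD was 0.49 in TH-MYCN SMG and 0.12 in WT SMG (n = 8 each). The window with 4 E-boxes shown above belongs to this gene.

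Cdk6, the second kinase partner of D cyclins, was near the limit of detection throughout. Its probe was well above background on 0 of 8 passaged sphere arrays, 0 of 8 primary sphere arrays, 2 of 8 TH-MYCN SMG arrays and 4 of 8 WT SMG arrays. In TH-MYCN SMG against WT SMG the difference was -0.39 (95% interval -1.08 to 0.30, limma adjusted p = 0.296), and with normexp background correction it was -0.66 and passed the threshold (adjusted p = 0.00768). No fold can be given for spheres.

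Cdkn2a, which encodes p16Ink4a and p19Arf, had the largest differences of the 10 genes and the widest spread among passaged cultures. Its brighter probe read -2.51, -3.09, 4.23 and 2.75 in passaged spheres 1 to 4. Primary spheres 1 to 8 read 2.19, 1.33, 2.28, 2.12, 2.28, 1.56, 2.27 and 1.67. Cultures 1 and 2 thus lay below all 8 primary spheres and cultures 3 and 4 lay above all 8. The 2 arrays of a culture, on different slides, differed by at most 0.33. The dimmer probe read -6.85, -6.76, -1.04 and -2.79 in cultures 1 to 4, where it was not well above background in cultures 1 and 2, against -4.34 to -2.94 in primary spheres. By that probe too, cultures 1 and 2 lay below and cultures 3 and 4 above all 8 primary spheres.

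**Figure D4:**
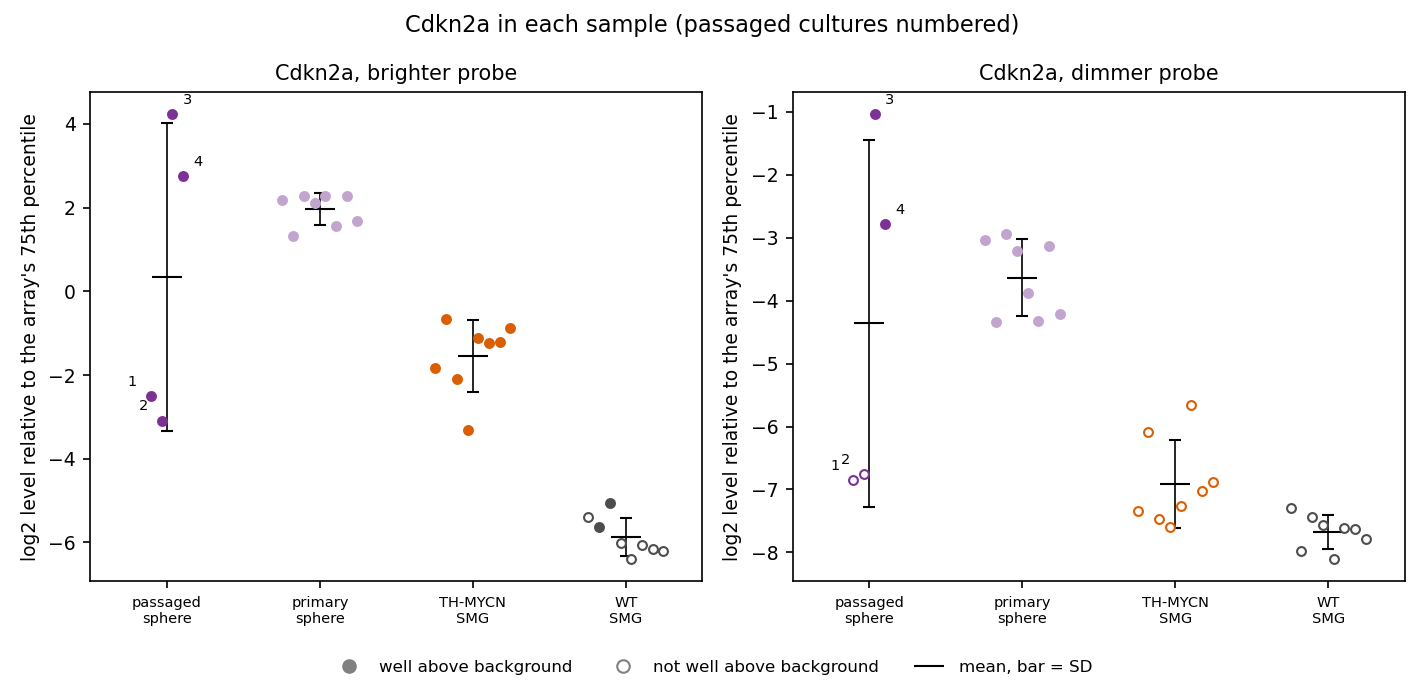
Level of Cdkn2a by its 2 probes (vertical axes, log2 relative to the array's 75th percentile) in passaged spheres, numbered 1 to 4, primary spheres, TH-MYCN SMG and WT SMG, with mean and SD; open points were not well above background. Cultures 3 and 4 sit above every primary sphere by both probes and cultures 1 and 2 below every one.

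Over the 4 cultures the mean was 0.34 ± 3.69 (SD, n = 4), against 1.96 ± 0.38 (SD, n = 8) in primary spheres, so the mean describes no single culture. The difference of -1.62 (SE 1.14) did not pass the test (limma adjusted p = 0.374), and leaving out cultures one at a time moved it between -2.91 without culture 3 and -0.47 without culture 2. In TH-MYCN SMG 1 to 8 the levels of the brighter probe were -1.84, -0.67, -2.10, -3.32, -1.12, -1.23, -1.20 and -0.89. WT SMG ran from -6.40 through a median of -6.04 to -5.06, and 2 of the 8 WT arrays were well above background, against 8 of 8 in TH-MYCN SMG. The groups did not overlap. Cdkn2a rose by 4.32 in TH-MYCN SMG relative to WT SMG (SE 0.32, limma adjusted p = 1.10e-08), with 3.54 within slide 1 and 5.10 within slide 2, and its size is uncertain because most WT signals were near background. With normexp background correction the rise was 1.78. Primary spheres exceeded TH-MYCN SMG by 3.51 (SE 0.31, limma adjusted p = 1.75e-08), or 11.4-fold, without overlap. By the dimmer probe, which was not well above background on any TH-MYCN SMG array, primary spheres were at least 4.30-fold higher. For that bound each TH-MYCN array was given the dimmest signal well above background on it, or the probe's signal where that was brighter. Both probes are annotated to one transcript, and whether they tell p16Ink4a from p19Arf was not determined.

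Cdkn2c, which encodes the INK4 inhibitor p18Ink4c, rose at each comparison. It read 1.44, 1.64, 0.75 and 1.34 in passaged spheres 1 to 4. The lowest, median and highest were 0.27, 0.55 and 0.86 in primary spheres, -0.55, 0.26 and 0.61 in TH-MYCN SMG and -1.16, -0.72 and -0.18 in WT SMG. Each group overlapped its neighbour. The rise was 0.86 in TH-MYCN SMG against WT SMG (SE 0.18, limma adjusted p = 6.96e-04), with 1.11 within slide 2 (called) and 0.61 within slide 1 (adjusted p = 0.0706). In passaged against primary spheres it was 0.73 (SE 0.15, limma adjusted p = 0.0121), with 0.78 within slide 4 (called) and 0.69 within slide 3 (adjusted p = 0.111). Primary spheres exceeded TH-MYCN SMG by 0.40 (SE 0.15, limma adjusted p = 0.0258), which was not called after quantile normalization, with the median gene set to 0 (0.12), with slides as a random block or without TH-MYCN SMG 5, primary sphere 1 or primary sphere 2 (adjusted p = 0.0534, 0.0501 and 0.0515).

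Cdkn1b, which encodes p27Kip1, an inhibitor mainly of CDK2 complexes, read 4.81, 4.66, 4.36 and 4.70 in passaged spheres 1 to 4. Its lowest, median and highest levels were 4.28, 4.51 and 4.62 in primary spheres, 3.49, 3.84 and 4.09 in TH-MYCN SMG and 3.35, 3.60 and 3.79 in WT SMG. Every sphere lay above every ganglion. Cdkn1b rose by 0.67 in primary spheres relative to TH-MYCN SMG (SE 0.09, limma adjusted p = 2.00e-06), or 0.39 relative to the median gene and 0.21 after quantile normalization, both called. In TH-MYCN SMG against WT SMG it was 0.21, above the threshold (limma adjusted p = 0.0514). Of 12 alternatives besides leaving out a sample, 8 made the call. Among them were normexp background correction (adjusted p = 0.0445), quantile normalization (0.36, adjusted p = 0.00463) and the slide as a block (0.0473). With the median gene set to 0 it was also called (0.44, adjusted p = 8.65e-04), but in neither slide alone. Leaving out TH-MYCN SMG 4 (0.26, adjusted p = 0.0152), TH-MYCN SMG 7 (0.0276), WT SMG 4 (0.0481) or WT SMG 6 (0.0348) gave a call as well. Passaged spheres differed from primary spheres by 0.16 (95% interval -0.04 to 0.37, limma adjusted p = 0.266).

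Rb1, the substrate of the D cyclin kinases and the brake on E2F, differed by at most 0.30 in any comparison, but by more under some alternatives. It read 2.37, 2.32, 2.15 and 2.38 in passaged spheres 1 to 4. Primary spheres had 1.73, 1.98 and 2.23 at the lowest, median and highest, TH-MYCN SMG had 2.10, 2.27 and 2.33, and WT SMG had 2.06, 2.18 and 2.38. All 4 groups overlapped in these ranges. TH-MYCN SMG differed from WT SMG by 0.06 (95% interval -0.09 to 0.20, limma adjusted p = 0.484), and by 0.28 with the median gene set to 0, where it was called (adjusted p = 0.00267). Rb1 fell in primary spheres relative to TH-MYCN SMG by 0.25 in log2 units (limma adjusted p = 0.00322, SE 0.07). That difference was -0.52 with the median gene set to 0 and -0.49 after quantile normalization (limma adjusted p = 2.77e-06 and 4.02e-06). Rb1 was higher in passaged than in primary spheres by 0.30 (SE 0.09, limma adjusted p = 0.0460). That call was lost with normexp background correction (0.0843), quantile normalization (0.0692), the median gene set to 0 (0.0557) and the authors' values (0.0660). It was lost too with only the first array of each passaged culture (0.0831) and within each of slides 3 and 4 (0.206 and 0.0577). The same held without passaged culture 1, 2 or 4 (0.0975, 0.109 and 0.132) or primary sphere 2, 3, 4, 6 or 7 (0.0561 to 0.0773).

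E2f1, whose product switches on S phase genes, rose at each comparison. It read 2.90, 3.08, 2.93 and 2.99 in passaged spheres 1 to 4. The lowest, median and highest were 2.31, 2.46 and 2.66 in primary spheres, -0.59, 0.63 and 1.24 in TH-MYCN SMG and -2.17, -1.83 and -1.48 in WT SMG. No group overlapped its neighbour. The difference was 2.38 in TH-MYCN SMG against WT SMG (SE 0.20, limma adjusted p = 5.69e-08), or 5.19-fold, with 2.39 within slide 1 and 2.37 within slide 2. It was 1.90 in primary spheres against TH-MYCN SMG (SE 0.19, limma adjusted p = 7.93e-08), or 3.74-fold. In passaged against primary spheres it was 0.50 (SE 0.07, limma adjusted p = 0.00234), with 0.39 within slide 3 and 0.60 within slide 4. That last difference was not called when all 4 groups shared 1 estimate of the spread (adjusted p = 0.115).

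The 3 comparisons share groups: TH-MYCN SMG stands in the first and the second, and primary spheres in the second and the third. One ganglion stood apart within its group. TH-MYCN SMG 4 had the lowest level in TH-MYCN SMG of 6 of the 10 genes (Ccnd1, Cdk4, Cdkn2a, Cdkn2c, Cdkn1b and E2f1) and the highest of 2 (Ccnd2 and Ccnd3). Without it the differences from WT SMG were 1.74 for Ccnd1, 1.95 for Cdk4, 4.57 for Cdkn2a, 0.96 for Cdkn2c and 2.54 for E2f1. Ccnd3 was then called lower (-0.27, limma adjusted p = 0.0286).

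With the 4 groups in 1 fit over 15883 genes, the groups of each gene were put in order of their means and neighbours were tested, 30 pairs in all. Of these 18 were separated and 12 were not. The shares of all genes called were 10.5% for passaged against primary spheres, 79.0% for passaged spheres against TH-MYCN SMG, 82.3% for primary spheres against TH-MYCN SMG, 84.3% for primary spheres against WT SMG and 66.6% for TH-MYCN SMG against WT SMG. Ccnd1 and Cdkn2c were ordered passaged sphere, primary sphere, TH-MYCN SMG and WT SMG from high to low with every step separated. The step between passaged and primary spheres was lost for Cdkn2c with normexp background correction and without passaged culture 1, 2 or 4, and for Ccnd1 without culture 2. The step between primary spheres and TH-MYCN SMG was lost for both genes after quantile normalization. Cdk4, Cdkn1b and E2f1 had the same order, with passaged and primary spheres not separated (adjusted p = 0.555, 0.369 and 0.115). The order was reversed for Ccnd2 and Ccnd3, where passaged and primary spheres were not separated (adjusted p = 0.211 and 0.633), nor were TH-MYCN SMG and WT SMG for Ccnd2 (0.690). For Ccnd3 the 2 ganglion groups were separated (0.0373), but not with normexp background correction, quantile normalization or no filter. Cdkn2a was highest in primary spheres, not separated from passaged spheres (0.243), then TH-MYCN SMG and WT SMG. Its passaged spheres were separated from TH-MYCN SMG (0.0399), but not with a replicate block or without passaged culture 3 or 4, and without culture 3 they were separated from primary spheres. The levels of cultures 1 and 2 lay below the TH-MYCN SMG mean of -1.55. For Rb1 passaged spheres, TH-MYCN SMG and WT SMG were not separated (0.546 and 0.469), and primary spheres were lowest. The order of Cdk6 rests on signals near background and no step was separated.

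Genes of most like pattern were those with the smallest root mean square difference from a member over the 28 samples, in log2 values centred per gene. For Cdk4 they were Selenoh (0.12), Rfc3 (0.14) and Dctpp1 (0.15), where the median over all genes was 1.49. For E2f1 they were Foxm1 (0.19), Ccnf (0.20) and Chaf1a (0.22), against a median of 1.89. For Ccnd1 they were Grip1, Sox4 and Slc27a3 (0.28 to 0.29, median 1.28), for Ccnd2 Sphk1, Tead2 and C1qtnf5 (0.52 to 0.58, median 2.42), and for Ccnd3 Tctn2, P3h4 and Ccdc9b (0.15 each, median 0.86). Those of Cdkn2c were Tgfbr1, Peli1 and Nemp2 (0.27 to 0.28), and those of Cdkn1b Larp4, Rev3l and Tubgcp3 (0.13 to 0.14). Those of Rb1 were Clip4, Macf1 and Skil (0.11 to 0.13, median 0.63), where Rb1 itself had an SD of 0.16 over the samples. For Cdk6, dim throughout, they were Rcvrn, Gpr12 and Snx25 (0.41 to 0.46). For Cdkn2a the closest, Psrc1, Snora47 and H1f1, differed by 1.28 to 1.40, against a median of 3.33 over all genes. Such differences scale with a gene's own spread, which over the samples was an SD of 3.33 for Cdkn2a and 0.90 for Cdk6.

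Other genes of the pathway were read from lists. All 15 E2F target genes of S phase rose in TH-MYCN SMG relative to WT SMG (median 2.25), with the largest rises in Rrm2, a subunit of ribonucleotide reductase (5.54, SE 0.27), and Uhrf1, which maintains DNA methylation (5.17, SE 0.29). All 15 rose again in primary spheres relative to TH-MYCN SMG (median 1.83), led by Uhrf1 (2.20) and Rrm2 (2.07). Of the 15, 8 rose and 0 fell in passaged against primary spheres, and the median was 0.29, led by Chaf1b, a chromatin assembly factor (0.57), and Uhrf1 (0.49). Neither was called when all 4 groups shared 1 fit (adjusted p = 0.121 and 0.331). Read against the shares of all genes called higher above (21.9%, 50.3% and 5.13%), these are counts of a list chosen with earlier results known.

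Among 7 measured later G1 and S cyclins and kinases, 4 rose and 1 fell in TH-MYCN SMG relative to WT SMG (median 1.06). Ccna2, cyclin A, rose by 4.86 (SE 0.26) and Ccne1, cyclin E, by 2.22 (SE 0.22), while Ccnh, of the CDK-activating kinase, fell by 0.54 on the log2 scale. In primary spheres against TH-MYCN SMG 6 rose, led by Ccne1 (1.79) and Cdk2, the kinase of cyclins E and A (1.76), and Ccnh fell by 0.37 (median of the list 1.64). The 5 and 7 of 7 called stand against 65.7% and 83.2% of all genes, the second near its background. In passaged against primary spheres 1 of the 7 was called, near the 11.6% of all genes called. It was Cdc25a, a phosphatase that activates CDK2 (0.31, limma adjusted p = 0.0470). That call was lost in 9 of 13 other settings and without passaged culture 1, 2, 3 or 4 (0.0723 to 0.132). It was also lost without primary sphere 3, 4, 5, 6 or 7 (0.0520 to 0.0808).

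Of the 11 other pocket proteins, E2F and DP genes, 9 rose and 0 fell in TH-MYCN SMG relative to WT SMG (median 0.56), led by the repressors E2f8 (4.26, SE 0.28) and E2f7 (3.92, SE 0.28), where 21.9% of all genes were higher. Both were dim in WT SMG (means of -3.99 and -3.92), and normexp background correction gave 2.73 and 2.55, with 1.58 for E2f7 as a mean over its probes, all called. In primary spheres against TH-MYCN SMG 9 rose and 1 fell (median 0.98), near the 83.2% of all genes called, of which the higher ones were 50.3% of all. Tfdp1, the DP partner of E2F, led with 2.02, E2f2 followed with 1.83, and the pocket protein gene Rbl2 fell by 0.53, a call lost with normexp background correction (-0.14, adjusted p = 0.177). Of the same list 6 of 11 rose and 0 fell in passaged against primary spheres (median 0.37), led by E2f8 (0.83) and E2f2 (0.64), where 5.13% of all genes were higher, and E2f8 was not called with all 4 groups in 1 fit (adjusted p = 0.0599). Of 6 genes of MuvB and B-Myb, 4 rose and 2 fell in TH-MYCN SMG relative to WT SMG (median 0.59), against 21.9% and 43.8% of all genes. Mybl2, which encodes B-Myb, rose by 4.07 and Lin9 by 2.13, while Lin52 fell by 0.41 and Lin37 by 0.21 (adjusted p = 0.0448). Lin52 was not called with the median gene set to 0 or as a mean over probes (adjusted p = 0.105 and 0.0641). The Lin37 value came to 0.01 with the median gene set to 0, and its call was lost without WT SMG 1, 2, 5, 6, 7 or 8 or any TH-MYCN SMG but 1 (adjusted p = 0.0512 to 0.0846). In primary spheres 4 of the 6 rose and 0 fell relative to TH-MYCN SMG (median 0.91), with Mybl2 at 1.81 and Lin9 at 1.39. These calls are no more than the 83.2% of all genes called, of which the higher ones were 50.3% of all. In passaged spheres 2 rose relative to primary spheres (median 0.12), Mybl2 (0.91) and Lin54 (0.30), where 5.13% of all genes were higher. Both calls were lost with a replicate block (limma adjusted p = 0.0587 and 0.0886) and without passaged culture 2 or 4 (0.0562 to 0.0811). Lin54 was also not called with normexp background correction (0.0737), with a slide block (0.0620), or within slide 3 or slide 4 (0.131 and 0.0553).

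**Figure D5:**
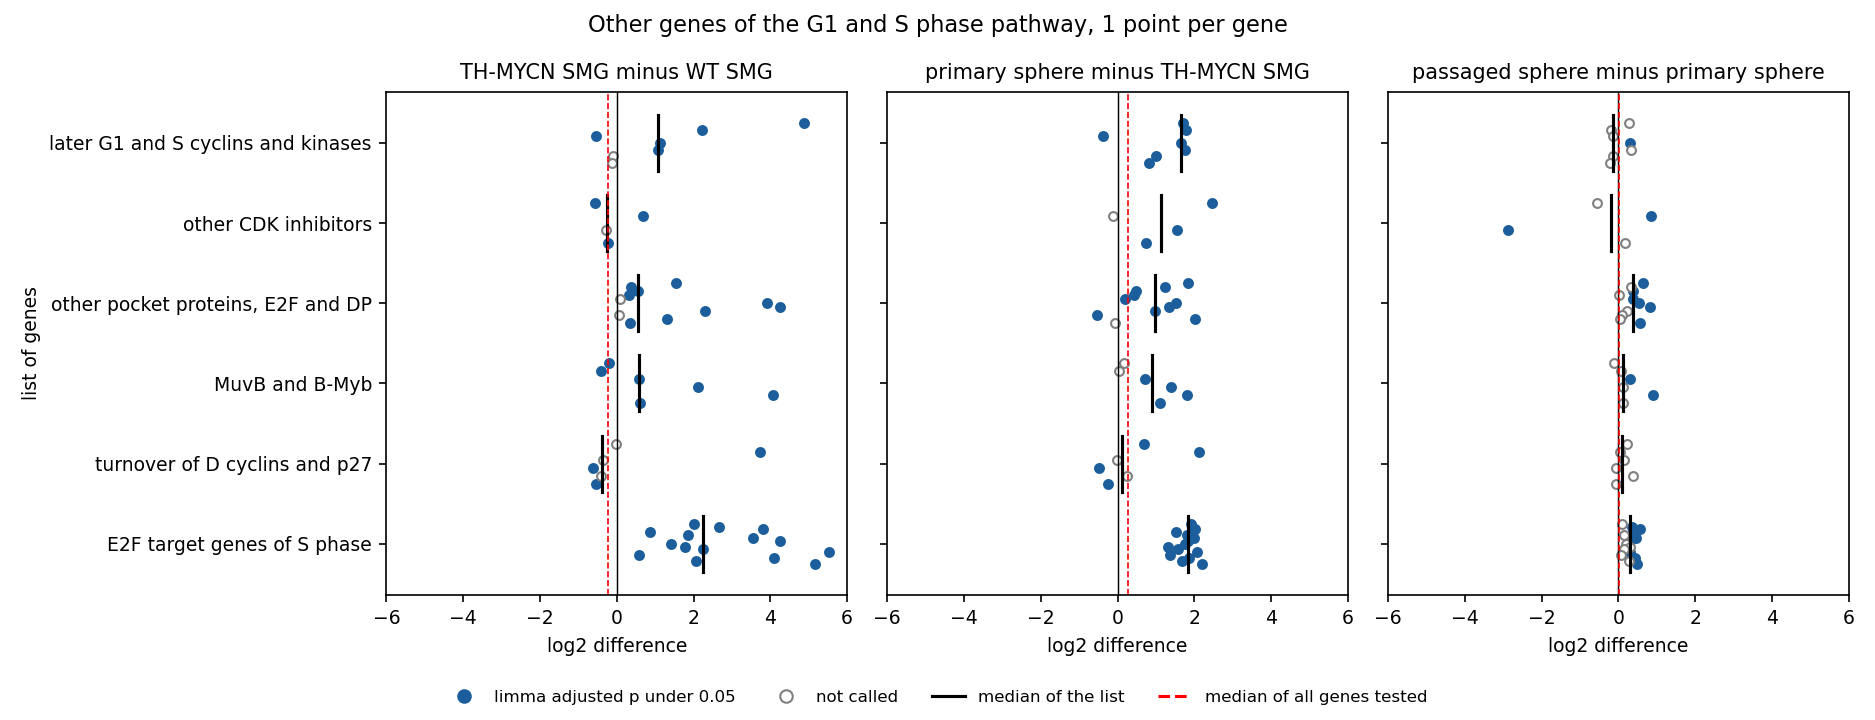
Log2 difference of each gene (horizontal axes) in 6 lists of G1 and S phase genes in the 3 comparisons; filled blue points were called by limma at an adjusted p under 0.05, black bars are list medians and red dashed lines the median of all genes tested. All 15 E2F target genes lie right of 0 in TH-MYCN SMG minus WT SMG and in primary sphere minus TH-MYCN SMG, whereas the other CDK inhibitors lie on both sides of 0 in TH-MYCN SMG minus WT SMG and in passaged sphere minus primary sphere.

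The 4 other CDK inhibitors did not move as one. In TH-MYCN SMG against WT SMG Cdkn1c, which encodes p57Kip2, rose by 0.69 (SE 0.16), whereas Cdkn1a, which encodes the p53 target p21, fell by 0.57 (SE 0.21, limma adjusted p = 0.0275) and Cdkn2d by 0.24, and neither was called with the median gene set to 0. The Cdkn1a call was also lost without WT SMG 7 or 8 or TH-MYCN SMG 1 or 2 (adjusted p = 0.0556 to 0.0580). Cdkn2b, the INK4 neighbour of Cdkn2a, did not pass (-0.28, limma adjusted p = 0.0534). The list had a median of -0.26, and its 3 of 4 called stand against 65.7% of all genes. In primary spheres against TH-MYCN SMG 3 of the 4 rose and 0 fell (median 1.14). These calls are near the 83.2% of all genes called, of which the higher ones were 50.3% of all. Cdkn1a led, with 3.45 ± 0.23 in primary spheres and 1.00 ± 0.41 in TH-MYCN SMG (mean ± SD, n = 8 each). The difference was 2.45 (SE 0.16, limma adjusted p = 4.26e-10), and 5.07 as a mean over its probes. Its second probe was dimmer, with a median of 0.32 in primary spheres against 3.46 for the first. The TH-MYCN SMG level of that probe is not given here, so the size of 5.07 is uncertain. Cdkn2b rose by 1.55 (SE 0.26). With passaging Cdkn1c rose by 0.85 (SE 0.16, limma adjusted p = 0.00745), Cdkn2b fell by 2.88 in log2 units (limma adjusted p = 0.0390, SE 0.80) and the list median was -0.18. The brighter Cdkn2b probe read -7.02, -6.94, -2.80 and -2.96 in passaged spheres 1 to 4, against -3.29 to -1.14 in primary spheres, so cultures 1 and 2 were lowest for Cdkn2b as they were for Cdkn2a. Of the 8 passaged arrays, 4 had this probe well above background. With normexp background correction the Cdkn2b difference was -0.99 and not called (adjusted p = 0.0634). The call was also lost with a replicate block (0.0881), within slide 3 or slide 4 (adjusted p = 0.0812 and 0.205) and without passaged culture 1 or 2 (0.0981 and 0.125) or primary sphere 1, 2, 3, 4, 7 or 8 (0.0555 to 0.0677).

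Of 6 measured genes for turnover of D cyclins and p27, 1 rose and 2 fell in TH-MYCN SMG relative to WT SMG (median -0.39), fewer than the 65.7% of all genes called. Cks1b, a cofactor for p27 degradation, rose by 3.74 (SE 0.22), while Fbxo4, implicated in cyclin D1 degradation, fell by 0.61 on the log2 scale and Rnf123, of the KPC ligase of p27, fell by 0.54. In primary spheres against TH-MYCN SMG 2 rose and 2 fell (median 0.11), again fewer than the 83.2% of all genes called. Cks1b rose by 2.11 and Ambra1, which directs D cyclins to degradation, by 0.69, while Fbxo4 fell by 0.49 and Rnf123 by 0.26, the last not called with slides as a random block (adjusted p = 0.0628). None of the 6 was called by limma in passaged against primary spheres (median 0.09), where 11.6% of all genes were called.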

How the data were processed

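Total RNA was read on 32 one-colour Agilent arrays for 28 samples. Probe intensities are the processed signals deposited by the authors, background-subtracted by Feature Extraction 11.5.1.1 per the file headers. The authors' deposited series matrix holds log2 values centred per probe on an unstated reference, and was used as an alternative. Here levels are log2 of the processed signal minus the log2 75th percentile of the array. Control spots and flagged outlier spots were left out, and a probe was dropped from a fit where a sample had no spot of it left. Both arrays of each passaged culture were averaged. A probe was kept if well above background in at least 4 samples of a comparison, and a gene was read from its kept probe of highest mean. The groups were tested in pairs with limma 3.58.1 (lmFit, eBayes, two-sided) in R 4.3.3, with the data.table package (version 1.17.8), Benjamini-Hochberg adjustment over all genes tested and a threshold of 0.05. The scripts were tested on simulated data. The series' design text calls the samples of a group biological replicates.

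The members and lists were chosen with earlier results of these data known. From each list the called genes with the largest rises and falls were named. Alternatives changed background correction, normalization, the filter, the choice of probe, the samples fitted, slide and replicate blocks, and left out each sample. The labels name more than one RNA input amount without saying which sample had which. Primary spheres and TH-MYCN SMG lay on different slides, so slide and group cannot be told apart there.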

Additional observations from a re-analysis of the deposited data

Results flagged for a closer look

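Of the 40 groups of levels (10 genes in 4 groups), 3 held a sample far from the others by Dixon's criterion, and chance alone gives about 1 in 20. Primary sphere 3 had the highest Ccnd3 level of its group, 2.19, with the nearest at 2.00 and the other end at 1.84. Primary sphere 8 had the highest Cdk4 level of its group, 6.97, with the nearest at 6.84 and the other end at 6.72. TH-MYCN SMG 4 had the lowest Cdk4 level of its group, 4.19, with the nearest at 5.00 and the other end at 5.71.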

How the results depend on the processing

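Over the alternatives and the fits that left out a sample, the 10 genes stayed on the same side of the threshold in 258 of their values for TH-MYCN SMG against WT SMG (20 gained a call, 1 lost it), 227 for primary spheres against TH-MYCN SMG (7 lost) and 200 for passaged against primary spheres (19 lost, 5 gained). Among the values not called, 3 turned sign: Ccnd3 (0.0023 with the median gene set to 0) and Rb1 (-0.01 within slide 2) in TH-MYCN SMG against WT SMG, and Ccnd2 (0.28 within slide 4) in passaged against primary spheres. Lin37 turned from -0.21 to 0.0144 in TH-MYCN SMG against WT SMG with the median gene set to 0. The number of genes called in passaged against primary spheres, 1645, became 979 with normexp background correction, 5286 with no filter, 1028 within slide 3, 956 within slide 4 and 933 with a replicate block. Leaving out a sample gave 777 to 1741 genes there (777 without passaged culture 4, 810 without culture 2), 9801 to 10695 in TH-MYCN SMG against WT SMG and 12809 to 13018 in primary spheres against TH-MYCN SMG. The share of calls that were higher, 33.4% in TH-MYCN SMG against WT SMG, was 55.5% with the median gene set to 0. In primary spheres against TH-MYCN SMG it was 60.4%, and 48.3% in that setting. In passaged against primary spheres it was 44.4%, against 32.4% after quantile normalization, 77.4% with no filter, 26.4% within slide 3 and 23.5% with a replicate block. The causes were not tested. Samples of the same number deviated together (correlation above 0.1) in 7 of 8 pairs of TH-MYCN SMG with WT SMG, 1 of 8 of primary spheres with TH-MYCN SMG and 2 of 4 of passaged with primary spheres, and correlated best with their own number in 4, 1 and 3. Both ganglion groups had samples 1 to 4 on slide 1 and 5 to 8 on slide 2, and only group means were removed. Pairing by number and a shared slide therefore cannot be told apart there by these correlations. As no comparison had every pair above 0.1 and the labels state no pairing, the block was kept as an alternative, and whether the numbers mark pairs is unsettled for TH-MYCN SMG with WT SMG and for passaged with primary spheres. With the replicate block 11224, 13047 and 933 genes and 7, 9 and 3 of the 10 genes were called. Calls then gained were Ccnd3 (-0.22, limma adjusted p = 0.0476) and Cdkn1b (0.21, 0.0457) in TH-MYCN SMG against WT SMG and Ccnd2 (-3.60, 0.0140) in passaged against primary spheres, where Cdkn2c (0.67, 0.0684) and Rb1 (0.26, 0.0901) were not called. Passaged and primary spheres share only the numbers 1 to 4, and primary spheres 1 to 4 all lay on slide 3. With the block, passaged cultures are thus set against those primary spheres only. Its Ccnd2 value belongs beside -3.45 within slide 3, where slide 4 gave 0.28. Signal over background limits Cdk6 in all groups, Ccnd2 in spheres and Cdkn2a in WT SMG.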

Other observations

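Genes next to Cdkn2a on mouse chromosome 4, and genes of the p53 response, were read in passaged cultures 1 to 4 after the Cdkn2a levels had been seen, and are given as values only. Among protein-coding genes the order along the chromosome is Mtap, Cdkn2a, Cdkn2b and Dmrta1. Mtap, an enzyme of methionine salvage, read 0.35, 0.21, 0.58 and 0.24 in cultures 1 to 4, against 0.24 to 0.57 in primary spheres. Dmrta1 was well above background on 2 of the 8 passaged arrays and in 1 of 8 primary spheres. Cdkn1a read 2.37, 2.12, 4.13 and 2.98 in cultures 1 to 4, against 3.07 to 3.75 in primary spheres, so cultures 1, 2 and 4 lay below all primary spheres and culture 3 above them. Its second probe read -1.43, -2.55, 0.85 and -0.73, against -0.33 to 0.65. Mdm2, the p53 ligase, read 4.01, 4.02, 4.07 and 3.90, against 3.95 to 4.06. Trp53, which encodes p53, read -0.18, -0.06, -0.15 and -0.15, against -0.60 to 0.18.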
